A study of Mus musculus with 24 samples.

Results

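The G2 and mitosis genes described here are 39 genes whose products carry a cell from the end of DNA replication through mitosis to the separation of the daughter cells. They were chosen as a list of mouse symbols, each matched to the Entrez identifier under which the deposited tables hold it, out of 36528 genes in those tables. All 39 were found and all 39 had enough reads to be tested. No measured value of these samples entered the list itself, although it was drawn up with earlier results of these data known.

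A dividing cell enters mitosis when cyclin-dependent kinase Cdk1, bound to cyclins A and B, is switched on by the phosphatase Cdc25c. Polo-like and Aurora kinases then build the spindle, kinetochore proteins attach chromosomes to it, and the checkpoint proteins hold the cell until every chromosome is attached. Cdc20 and the ubiquitin-conjugating enzyme Ube2c start the destruction of cyclins and securin at anaphase, and proteins of the central spindle and the contractile ring then divide the cell. Transcripts of these genes rise together in late S phase and G2, and in the intestine they come mostly from the dividing cells of the crypt, which depend on Wnt signalling.

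The cultures were organoids from mouse small intestine, that is, epithelium grown in vitro with its crypt stem cells and their descendants. Polyadenylated RNA was sequenced from 24 of them in 6 groups of 4: dFz7-21, Fz7-21S and DMSO at 24 h, and dFz7-21, Fz7-21S and DMSO at 6 h. dFz7-21 is a peptide that, per the series' design text, blocks the Wnt receptor Frizzled 7. Fz7-21S is named in the labels without further description, and DMSO is a solvent. The labels give no dose and no strain, genotype or age of the mice. They do not say that replicates were grown apart or taken from different mice, and the tests therefore weigh differences only against the spread among these libraries, part of which may be technical.

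Many genes of this program share a pair of promoter elements, which are shown first as a trait of many members, though not of all, at the level of DNA. The cell cycle genes homology region, CHR, was searched as TTTGAA or TTCGAA, and the CCAAT box, known as a binding site of the factor NF-Y, as CCAAT, each on both strands. The windows held 250 bases before and 50 after a gene's start in the promoter table of RefSeq (GRCm38.p6), and 33 of the 39 genes had one. Below, the 250 bases before the start are printed 5′ to 3′ on the strand of the gene, with both elements in capitals, for Top2a (chr11:99024190-99024439, minus strand), Mki67 (chr7:135716380-135716629, minus strand), Cdk1 (chr10:69352913-69353162, minus strand) and Ube2c (chr2:164769679-164769928, plus strand), chosen as the 4 genes of highest mean CPM that hold both elements.
Top2a: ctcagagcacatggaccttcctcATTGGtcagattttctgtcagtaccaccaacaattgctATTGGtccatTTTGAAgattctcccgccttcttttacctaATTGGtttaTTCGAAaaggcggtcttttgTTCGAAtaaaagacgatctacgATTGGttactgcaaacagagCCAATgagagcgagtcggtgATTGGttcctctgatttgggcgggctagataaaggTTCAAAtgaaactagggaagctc
Mki67: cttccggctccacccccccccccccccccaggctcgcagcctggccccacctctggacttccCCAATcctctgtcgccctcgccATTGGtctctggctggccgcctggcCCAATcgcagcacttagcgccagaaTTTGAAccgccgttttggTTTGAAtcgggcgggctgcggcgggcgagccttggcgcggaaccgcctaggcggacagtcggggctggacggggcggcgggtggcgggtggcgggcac
Cdk1: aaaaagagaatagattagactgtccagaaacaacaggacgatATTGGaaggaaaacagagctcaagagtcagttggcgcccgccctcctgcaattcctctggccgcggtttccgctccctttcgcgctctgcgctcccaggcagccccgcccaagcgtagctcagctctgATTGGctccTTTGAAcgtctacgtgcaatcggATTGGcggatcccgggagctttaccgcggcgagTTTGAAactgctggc
Ube2c: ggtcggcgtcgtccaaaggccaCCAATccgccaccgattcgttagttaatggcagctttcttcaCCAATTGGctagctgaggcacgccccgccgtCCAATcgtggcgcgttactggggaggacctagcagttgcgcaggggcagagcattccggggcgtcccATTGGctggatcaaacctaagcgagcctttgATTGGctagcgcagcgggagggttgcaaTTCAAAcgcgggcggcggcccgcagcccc
In the Top2a window these letters occurred 4 times for CHR and 6 times for CCAAT, the nearest CHR starting 23 bases before the start. Cdk1 held a CHR 15 bases before its start with a CCAAT box at 48 bases, and Ube2c a CHR at 29 bases with a CCAAT box at 57 bases. The run CCAATTGG of Ube2c reads as a CCAAT box on either strand and was counted as 2 overlapping matches.

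A CHR was found in 27 of the 33 windows (81.8%), against 14.0% of the 11334 windows of tested genes. A CCAAT box was found in 26 (78.8%), against 38.4%, and both elements in 23 (69.7%), against 5.89%. Neighbouring CCAAT boxes lay a median of 33 bases apart over 35 neighbouring pairs, but only 9 pairs lay 30 to 35 bases apart. The distances ran from 3 bases, the overlapping matches of Ube2c, to 147 bases in Kif4. Birc5, Nusap1 and Nuf2 held neither set of letters in this window. A match is a stretch of letters and not a shown binding site, and how far the letters bear on the changes below was described only by medians: the 23 genes with both elements had a median log2 change of 0.79 between 24 h and 6 h in DMSO, and the 10 others with a window one of 0.82.

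Levels are given as CPM, library-scaled counts with TMM factors, while levels of different genes are set side by side only per length, by the authors' size-factor-adjusted RPKM. On that scale Ube2c stood highest in DMSO at 24 h, at 225 ± 9.79 RPKM (mean ± SD, n = 4, as for the values that follow). Ccna2, cyclin A2, followed at 112 ± 2.51 RPKM and Cdc20 at 105 ± 4.72 RPKM, whose ranges of 1 SD are close to each other. Top2a, at 91.3 ± 2.02 RPKM, and Ccnb2, cyclin B2, at 89.4 ± 3.51 RPKM, were next and do not differ beyond their spread. At the lower end stood the kinetochore motor Cenpe (9.54 ± 0.645 RPKM), the protease separase Espl1 (9.50 ± 1.2 RPKM), Ccnb1 (7.56 ± 0.643 RPKM) and the kinetochore protein Cenpf (7.29 ± 0.393 RPKM). The value of Ccnb1, cyclin B1, is uncertain, because reads that match it and its near-identical pseudogene copy equally were not counted, and the copy itself had 56 to 143 counts per library, against a mean of 349 counts for Ccnb1. Nusap1 overlaps Oip5, Aurka overlaps Cstf1, Ccna2 overlaps Exosc9, Cdc20 overlaps Elovl1, and Kif20a overlaps Brd8 and Cdc23, so their counts may hold reads of the neighbour if strand was not used.

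Libraries held 20.4 M to 33.1 M counts (M for mega, median 25.1 M), of which the 39 genes took 0.278% to 0.531%. All 11 epithelial markers were detected in every group. Transcripts of 15 mesenchymal markers summed to 1139 CPM in dFz7-21 24 h replicate 3 and to 247.5 and 192 CPM in DMSO 6 h replicates 1 and 2, against 9.81 to 18.6 CPM in the other 21 libraries. Dcn and Lum, a pair of defining markers among them, were at 0 in every group. Which cells the other mesenchymal marker transcripts came from was not tested. Fz7-21S 24 h replicate 4 also stood apart: it tended to be low in the members with long gene models and high in those with short ones. Its deviation from the other 3 libraries of its group fell by 0.402 log2 units for each doubling of gene model length over the 39 genes, while the same slope in the other 23 libraries ran from -0.0994 to 0.193, the upper values belonging to its own group. Mki67, at 3.15 times the median model length of the 39, had 203 CPM there, against 348 to 389 CPM in the other 3 libraries. Ube2c, at 0.29 times that length, had 319 CPM, against 189 to 218 CPM. Birc5 was also high, at 213 CPM, against 129 to 137 CPM, though its model is not short (1.06 times). The labels give no RNA quality value for single samples. Main counts that changed without these libraries are given both ways. Counts from fits without some libraries stand without the share of all genes called in the same fit.

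**Figure D1:**
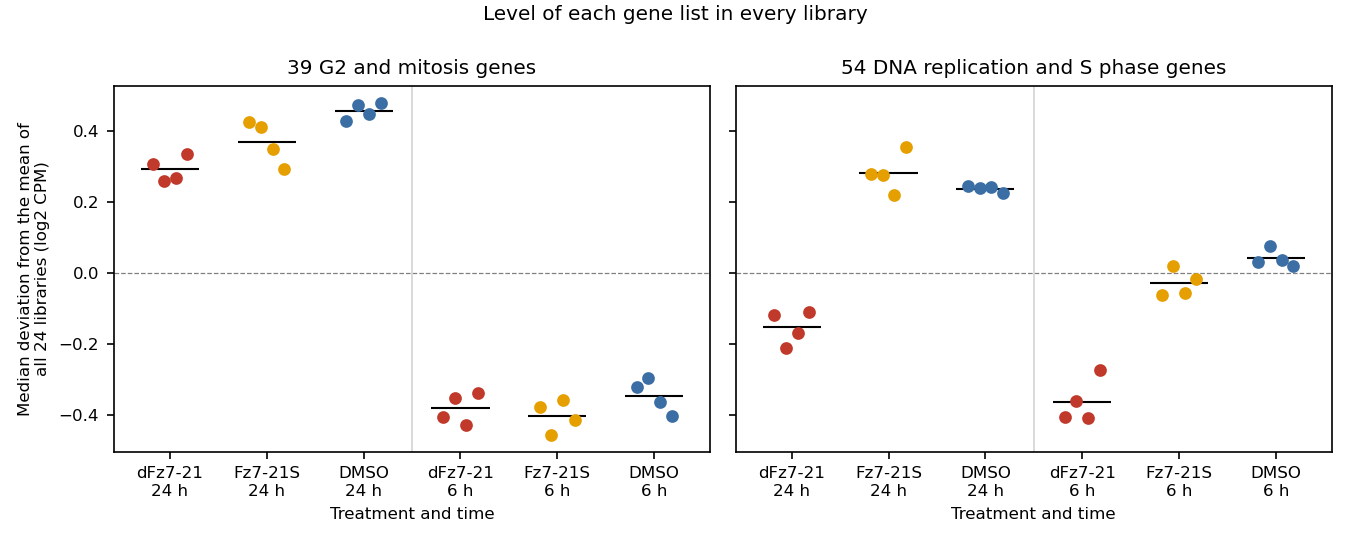
Median over a gene list of the deviation of log2 CPM from the mean of all 24 libraries (y axis, log2 units), for the 39 G2 and mitosis genes (left) and the 54 DNA replication and S phase genes (right). Each point is 1 library and each line the mean of 4. The G2 and mitosis genes stand at 0.257 to 0.334 in the 4 dFz7-21 libraries at 24 h and at 0.427 to 0.479 in the 4 DMSO libraries, and below -0.29 in all 12 libraries at 6 h, while the S phase genes lie lower with dFz7-21 than with DMSO at both times.

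After 24 h with dFz7-21, genes of the kinetochore, the spindle and cytokinesis were lower than with DMSO, by small amounts. Of the 39 genes 23 were lower and 0 higher, in a comparison in which 17.7% of all 15429 genes tested were called lower, 18.2% higher and 35.9% in either direction. The called log2 changes ran from -0.56 to -0.13. The median log2 change of the 39 was -0.18, against -0.01 over all genes tested. In 24 of them the 4 dFz7-21 libraries all lay below the 4 DMSO libraries, which was so for 19% of all genes, and in 0 they all lay above (19.4% of all genes). Espl1 and Anln were apart in this way without passing the test, and Ccna2 passed with overlapping groups. In whole organoids, fewer dividing cells and less of these transcripts per cell cannot be told apart. Summed markers of other cell types stood apart in the same libraries: 5 crypt stem cell markers reached 248 to 369.5 CPM with dFz7-21, against 2043 to 2739 CPM with DMSO, 5 enterocyte markers 3994 to 4678 CPM, against 2367 to 2852 CPM, and 3 Paneth cell markers 1962 to 2248 CPM, against 2810.2 to 3253 CPM. Epithelial markers stood apart too, at 14348 to 15495 CPM with dFz7-21, against 11528 to 12591 CPM with DMSO. The same held for goblet cell markers (935 to 1069 CPM, against 766 to 839 CPM) and enteroendocrine markers (204 to 257 CPM, against 171 to 186 CPM). With Fz7-21S at 24 h the crypt stem cell markers reached 2029.7 to 2319 CPM and the Paneth cell markers 2889 to 4814 CPM, both above dFz7-21. The other sums named here overlapped between dFz7-21 and Fz7-21S. With Fz7-21S enterocyte markers reached 2802 to 4122 CPM and epithelial markers 11738 to 16002 CPM. Goblet cell markers reached 845 to 1424 CPM and enteroendocrine markers 177 to 254 CPM. The part of these markers in the result was not tested.

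Of the cytokinesis genes 6 of 7 were lower. Log2 changes are given ± SE, with adjusted p over all genes tested. Kif20a, a kinesin that brings the passenger complex to the central spindle, stood at 116, 108, 119 and 117 CPM in the dFz7-21 libraries, against 144, 147, 142 and 146 CPM in the DMSO libraries. Its log2 change was -0.33 ± 0.05 (SE, adjusted p = 1.43e-05) by edgeR's quasi-likelihood test with Benjamini-Hochberg adjustment, and the groups did not overlap. Kif23 (chromosome 9, 61917277 to 61946810), the motor subunit of the centralspindlin complex, had 104, 108, 103 and 110.5 CPM with dFz7-21, against 134, 138, 122 and 138 CPM with DMSO, a change of -0.33 ± 0.05 (SE, adjusted p = 2.08e-05). Its partner Racgap1 changed by -0.17 ± 0.04, a call lost without dFz7-21 24 h replicate 2 (adjusted p = 0.0506).

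Ect2 (chromosome 3, 27097222 to 27154253), the exchange factor that activates RhoA at the cleavage furrow and is recruited by centralspindlin, had the largest decrease of the 39. It stood at 97.6, 94.0, 91.0 and 97.8 CPM with dFz7-21, against 139.7, 144, 134 and 144 CPM with DMSO, a log2 change of -0.56 ± 0.12 (SE, adjusted p = 0.000882). Cep55 (chromosome 19, 38054970 to 38074425), which recruits the membrane-cutting machinery to the midbody, had 38.9, 38.4, 36.7 and 41.9 CPM with dFz7-21, against 52.0, 50.4, 50.2 and 50.3 CPM with DMSO (-0.38 ± 0.07, adjusted p = 8.22e-05). For Ect2 and Cep55 every dFz7-21 library lay below every DMSO library. Prc1, which bundles the microtubules of the central spindle, changed by -0.24 ± 0.04 (adjusted p = 0.000181). Anln, the anillin scaffold of the contractile ring, did not pass, with an interval of -0.35 to 0.01 (95%, as below, not adjusted for the number of genes).

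Among kinetochore and checkpoint genes 5 of 7 were lower, and so was Ttk. Ttk (chromosome 9, 83834651 to 83872390), the checkpoint kinase Mps1, stood at 34.1, 30.7, 28.9 and 34.5 CPM with dFz7-21, against 45.3, 46.4, 46.5 and 43.7 CPM with DMSO (-0.50 ± 0.09, adjusted p = 8.66e-05). Ndc80 (chromosome 17, 71496100 to 71526857), the microtubule-binding subunit of the outer kinetochore, had 27.9, 29.6, 25.6 and 28.2 CPM with dFz7-21, against 37.5, 39.5, 39.2 and 36.3 CPM with DMSO (-0.45 ± 0.08, adjusted p = 5.46e-05). Both genes had groups that did not overlap. Nuf2, the partner of Ndc80 in the same complex, changed by -0.27 ± 0.07, and the checkpoint kinase Bub1 by -0.36 ± 0.10, at 43.9, 44.8, 45.3 and 48.8 CPM with dFz7-21, against 59.7, 57.0, 62.0 and 56.1 CPM with DMSO. The checkpoint protein Bub1b and the motor Cenpe were called as well, but kept the call in only 1 of 8 fits that left out a library each. The centromeric histone Cenpa, at -0.06 ± 0.08, and Cenpf, at -0.20 ± 0.09 with an interval of -0.39 to -0.00, did not pass.

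Of the spindle motors and microtubule binders 6 of 7 were lower, from -0.15 for Dlgap5, a spindle assembly protein, to -0.21 for Nusap1, which stabilises microtubules near chromatin. Nusap1 alone of these kept its call in every fit that left out a library (-0.21 ± 0.06, adjusted p = 0.00554). Kif11, the motor that separates the spindle poles, Kif2c, which depolymerises microtubule ends, the chromosome motor Kif4 and Tpx2, the spindle activator of Aurora A, changed by -0.20 to -0.17 on the log2 scale. Hmmr, a spindle pole protein, did not pass (-0.40 to 0.05).

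The chromosome and passenger genes divided. Top2a (chromosome 11, 98992947 to 99024199), the topoisomerase that untangles sister chromatids, stood at 404, 391, 361 and 410.3 CPM with dFz7-21, against 469.8, 490.3, 476 and 493 CPM with DMSO (-0.30 ± 0.06, adjusted p = 0.000158). The lowest DMSO library was above the highest dFz7-21 library. Mki67, the chromosome surface protein used as a marker of dividing cells, had 378, 359.8, 316 and 348 CPM with dFz7-21, against 370.4, 410.1, 374 and 432 CPM with DMSO. These groups overlapped and the change did not pass, with an interval of -0.43 to 0.07. Aurkb, the kinase of the chromosomal passenger complex, was lower (-0.19 ± 0.04, adjusted p = 0.00153), at 122, 116, 116 and 128 CPM with dFz7-21, against 136, 141, 137 and 136 CPM with DMSO. Its partner Birc5, survivin, had the highest change of the 39 at 0.09 ± 0.10 and did not pass, though it was called higher without the 5 libraries that stand apart (0.14, adjusted p = 0.0134). That fit drops the lowest dFz7-21 library for Birc5, replicate 3 at 134 CPM, and the highest DMSO library, replicate 2 at 136 CPM. The partner Cdca8, borealin, was at -0.12 ± 0.06 and did not pass.

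Of the genes that take the cell into mitosis 2 of 6 were lower, and of the anaphase genes 0 of 3. Of the entry genes Ccna2 and Ccnf, a cyclin of a ubiquitin ligase, were called lower (-0.15 ± 0.05 and -0.13 ± 0.05), and each lost its call in 6 of 8 fits that left out a library. Cdk1 had 203, 191, 201 and 212 CPM with dFz7-21, against 236, 227, 209.9 and 217 CPM with DMSO, and the groups overlapped. Its interval was -0.30 to 0.02, and those of Ccnb1, Ccnb2 and Cdc25c were -0.30 to 0.13, -0.19 to 0.14 and -0.29 to 0.12. Plk1, polo-like kinase, was called lower (-0.16 ± 0.06) but kept that call in only 1 of the 8 fits, while Aurka, Aurora A kinase (-0.17 to 0.07), and the centrosome kinase Nek2 (-0.15 to 0.09) did not pass. Among the anaphase genes Cdc20 stood at 182, 179, 184 and 197 CPM with dFz7-21, against 196, 196, 179 and 183 CPM with DMSO, with an interval of -0.17 to 0.12, Ube2c had -0.20 to 0.22, and Espl1, separase, -0.42 to -0.04.

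**Figure D2:**
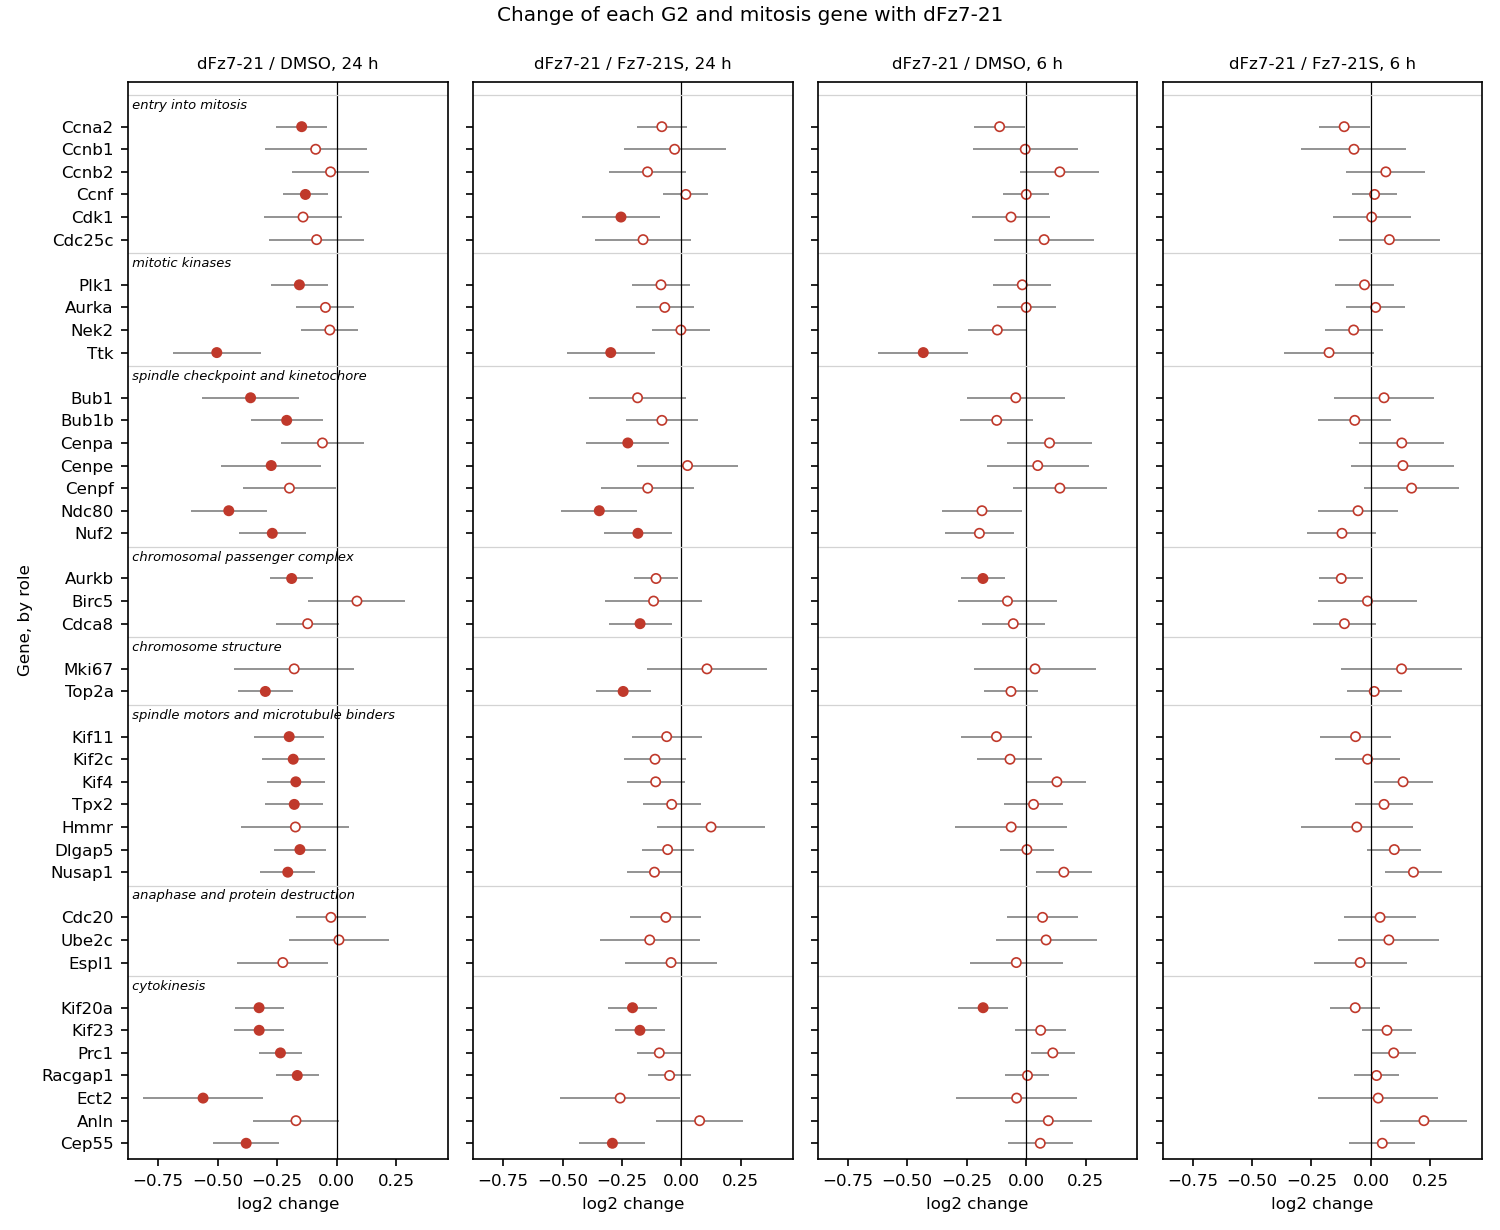
Log2 change (x axis) of each of the 39 genes, grouped by role, with dFz7-21 against DMSO and against Fz7-21S at 24 h and at 6 h. Bars are 95% intervals and filled points passed an adjusted p of 0.05. At 24 h against DMSO 23 points are filled, all left of 0 and 6 of them in cytokinesis, and at 6 h the filled points are Ttk, Aurkb and Kif20a.

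Of the 23 called genes 12 kept their call in all 8 fits that left out a library: Kif20a, Kif23, Ndc80, Cep55, Ttk, Top2a, Prc1, Ect2, Aurkb, Nuf2, Nusap1 and Bub1. Without the 3 libraries with mesenchymal transcripts, of which dFz7-21 24 h replicate 3 belongs to this comparison, 16 of the 23 were called and 0 others. The number of calls was 13 without dFz7-21 24 h replicate 1 or 2 and 14 without dFz7-21 24 h replicate 3 or DMSO 24 h replicate 1.

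Set against Fz7-21S at 24 h, which shares the dFz7-21 libraries with the comparison above, 10 of the 39 genes were lower with dFz7-21 and 0 higher, where 17.2% of all genes were called lower, 16.5% higher and 33.7% in either direction. The median log2 change was -0.11, against -0.01 over all genes tested. Ndc80 stood at 27.9, 29.6, 25.6 and 28.2 CPM with dFz7-21, against 36.9, 37.1, 30.2 and 37.3 CPM with Fz7-21S (-0.35 ± 0.08, adjusted p = 0.00124). Top2a had 493, 480.4, 444 and 439.6 CPM with Fz7-21S, all above its dFz7-21 libraries (-0.25 ± 0.06, adjusted p = 0.00144). Kif20a (-0.21 ± 0.05, adjusted p = 0.0025) and Cdk1 (-0.25 ± 0.08, adjusted p = 0.015) were the other genes without overlap. Groups of 4 genes thus did not overlap, which 12.5% of all genes showed in this direction and 13.4% in the other. Cep55 changed by -0.29 ± 0.07, Ttk by -0.30 ± 0.09 and Kif23 by -0.17 ± 0.05, with adjusted p of 0.00166, 0.0125 and 0.0109. Cdca8, Nuf2 and Cenpa were the others called. Hmmr had the highest change, 0.12 ± 0.11, and did not pass.

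Fz7-21S 24 h replicate 4, the library with the slope on gene model length, decided several of these calls. Without it 11 genes were lower, a count that stands without the share of all genes called in the same fit. It is therefore not a result about these genes alone. Of the 11 genes 6 were among the 10 above, and Ect2, Bub1, Bub1b, Cenpf and Prc1 were added. Ect2 stood at -0.41 ± 0.06 (SE, adjusted p = 6.43e-07) without this library, against -0.26 ± 0.12 (SE, adjusted p = 0.109) with it, so that its SE was smaller too. Calls were lost for Cdk1, at -0.09 (adjusted p = 0.11), Cdca8, at -0.07 (adjusted p = 0.317), and Cenpa, at -0.06 (adjusted p = 0.401). Nuf2 was at -0.17 (adjusted p = 0.0521), against -0.18 ± 0.07 (SE, adjusted p = 0.0416) with the library, so that its call was lost while its change stayed about as large. Birc5 was at -0.12 ± 0.10 with this library and at 0.10 (adjusted p = 0.0826) without it. The values of Ndc80, Top2a and Cep55 without it were -0.30 (adjusted p = 0.00336), -0.25 (adjusted p = 0.000378) and -0.34 (adjusted p = 1.72e-05). The count was 4 to 6 without dFz7-21 24 h replicate 1, 2 or 3, 6 without the 3 libraries with mesenchymal transcripts, and 2 in a fit of only the groups compared.

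Between Fz7-21S and DMSO, no member passed the edgeR quasi-likelihood test at either time. At 24 h 0 of 39 were called, where 0.259% of all genes were called, and DESeq2 called 2 lower, Ccnf and Prc1. Unadjusted p was below 0.05 for 12 of the 39. That threshold is looser than the one behind the 0.259%, so the 2 cannot be set against each other. The genes in that 0.259% were all higher, and 0% of all genes were called lower. Ccnf changed by -0.15 ± 0.05 (SE, adjusted p = 0.162), with an interval of -0.24 to -0.06, and Prc1 by -0.14 ± 0.04 (SE, adjusted p = 0.162), with an interval of -0.24 to -0.05. All Fz7-21S libraries lay below all DMSO libraries in 7 of the 39 genes, where 2.52% of all genes did, and above them in 0, where 2.74% did. Kif23 (-0.15 ± 0.05, adjusted p = 0.162), Cenpe (-0.30 ± 0.10, adjusted p = 0.162), Anln (-0.25 ± 0.09, adjusted p = 0.163) and Hmmr (-0.30 ± 0.11, adjusted p = 0.164) followed by p, and these 6 genes were called lower when Fz7-21S 24 h replicate 1 was left out. Without replicate 4, the library with the slope on gene model length, all 6 changes were smaller and none was called. Ccnf and Anln were then at -0.12, Prc1 and Kif23 at -0.11, Cenpe at -0.18 and Hmmr at -0.17. Their adjusted p ran from 0.523 to 0.669. The highest change was that of Birc5, 0.20 ± 0.10, which was 0.00 without replicate 4, and the lowest that of Ect2, -0.30 ± 0.12, which was -0.13 without it. At 6 h 0 of 39 were called by edgeR and 0 by DESeq2, where 0.00648% of all genes were called by edgeR. At the looser threshold of an unadjusted p below 0.05 were 2 of the 39, Ttk at -0.26 ± 0.09 and Kif20a at -0.12 ± 0.05. Groups did not overlap in 2 of the 39, with Fz7-21S lower (1.52% of all genes), and in 0 with Fz7-21S higher (3.08%).

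At 6 h with dFz7-21 few of these genes differed from DMSO. Of 39, 3 were lower and 0 higher, where 5% of all genes were called lower, 6.05% higher and 11% in either direction, and the median log2 change lay within 0.01 of 0. Groups did not overlap in 5 genes with dFz7-21 lower (10.8% of all genes) and in 2 with it higher (13.7%). Crypt stem cell markers summed to 1377.5 to 1584 CPM with dFz7-21, against 1944 to 2086 CPM with DMSO. Epithelial markers were higher, at 20589 to 21328 CPM with dFz7-21, against 16775 to 19379 CPM with DMSO. Goblet cell markers were higher as well (907 to 954 CPM, against 709 to 855 CPM). The part of these markers was not tested. Ttk had 20.1, 19.2, 18.6 and 21.0 CPM with dFz7-21, against 27.6, 27.3, 27.5 and 24.0 CPM with DMSO (-0.43 ± 0.09, adjusted p = 0.00211). Aurkb had 60.7, 66.9, 60.9 and 66.5 CPM with dFz7-21, against 74.2, 70.4, 72.5 and 72.1 CPM with DMSO (-0.18 ± 0.04, adjusted p = 0.00755). For both genes all dFz7-21 libraries lay below all DMSO libraries. Kif20a changed by -0.18 ± 0.05 (SE, adjusted p = 0.0187), a call that was lost in 3 fits, those lacking dFz7-21 6 h replicate 3, DMSO 6 h replicate 1 and DMSO 6 h replicate 2.

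Nuf2 (-0.20 ± 0.07, adjusted p = 0.0736), Nusap1 (0.16 ± 0.06, adjusted p = 0.0803) and Prc1 (0.11 ± 0.04, adjusted p = 0.121) came next by p and did not pass. Nusap1 had the highest change of the 39, and its dFz7-21 libraries, at 46.5, 45.9, 43.7 and 50.8 CPM, lay above the DMSO libraries, at 42.8, 43.4, 41.3 and 40.0 CPM. Mki67 had 207, 207, 193 and 205 CPM with dFz7-21, against 201, 207, 195 and 188 CPM with DMSO, and an interval of -0.22 to 0.29. Summed transcripts of the mesenchymal markers were high in DMSO 6 h replicates 1 and 2. Without the 3 libraries where they were high 0 members were called, by a fit with 2 DMSO libraries left. In that fit Ttk was at -0.39 (adjusted p = 0.0545), Aurkb at -0.18 (adjusted p = 0.0846) and Kif20a at -0.12 (adjusted p = 0.379), so that the changes of Ttk and Aurkb stayed about as large. Against Fz7-21S at 6 h, 0 of 39 genes were called by edgeR and 1 higher, Nusap1, by DESeq2. Over all genes edgeR called 3.83% lower, 3.21% higher and 7.04% in either direction. Unadjusted p was below 0.05 for 6 of the 39, a looser threshold than that of these shares. Groups did not overlap in 2 genes with dFz7-21 lower (10.5% of all genes) and in 4 with it higher (11.1%). Nusap1 (0.18 ± 0.06, adjusted p = 0.0622), Aurkb (-0.12 ± 0.04, adjusted p = 0.103), Anln (0.22 ± 0.09, adjusted p = 0.154), Kif4 (0.14 ± 0.06, adjusted p = 0.22), Ccna2 (-0.11 ± 0.05, adjusted p = 0.24) and Prc1 (0.10 ± 0.04, adjusted p = 0.256) were the genes with the smallest p, and Ttk, at -0.18 ± 0.09, had the lowest change.

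The median level of the set was higher at 24 h than at 6 h with dFz7-21, Fz7-21S and DMSO. In DMSO all 39 genes were higher at 24 h than at 6 h, with no overlap in any of them, where 27.3% of all genes were called higher, 24.9% lower and 52.2% in either direction, and 27.3% lay wholly above and 25.9% wholly below. Their median log2 change was 0.81, or 1.75-fold, against 0.00 over all genes tested. Ccnb2 (chromosome 9, 70407689 to 70421554) rose most, by 2.96-fold. It had 146, 137, 139.6 and 133 CPM at 24 h, against 49.8, 46.7, 44.0 and 47.4 CPM at 6 h (1.56 ± 0.08, adjusted p = 8.71e-14). Nusap1, with 104 ± 3.14 CPM at 24 h and 41.9 ± 1.54 CPM at 6 h (SD, n = 4 each), changed by 1.32 ± 0.06 (SE, adjusted p = 5.07e-15). In the same libraries enterocyte markers summed to 2367 to 2852 CPM at 24 h, against 1285 to 1758 CPM at 6 h. Epithelial markers went the other way, with 11528 to 12591 CPM at 24 h, against 16775 to 19379 CPM at 6 h. So did enteroendocrine markers (171 to 186 CPM, against 258 to 319 CPM) and tuft cell markers (13.0 to 15.9 CPM, against 16.9 to 18.2 CPM). The part of these markers was not tested. Hmmr changed by 1.27 ± 0.11, Cdc25c by 1.22 ± 0.10 and Ndc80 by 1.21 ± 0.08.

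Aurkb (0.93 ± 0.04, adjusted p = 2.67e-14), Racgap1 (0.91 ± 0.04, adjusted p = 4.13e-14), Kif2c (1.14 ± 0.07, adjusted p = 5.83e-13) and Dlgap5 (0.91 ± 0.05, adjusted p = 1.07e-12) had the other smallest p. Mki67 averaged 397 ± 29.5 CPM at 24 h and 198 ± 8.21 CPM at 6 h in DMSO, and Top2a 482 ± 11.1 CPM at 24 h and 308 ± 17.6 CPM at 6 h. Plk1 was 1.74-fold, Aurka 1.62-fold, Cdk1 1.55-fold, Ccnb1 1.65-fold, Cdc20 1.87-fold, Birc5 1.81-fold and Cenpf 1.73-fold higher at 24 h. The genes of cytokinesis had the lowest median of the 8 roles, 0.51 over 7 genes, against 0.69 for entry into mitosis and 0.92 for spindle motors. The 4 lowest changes of the 39 were those of Cep55 (0.27 ± 0.07, adjusted p = 0.00129), Kif23 (0.36 ± 0.05), Ect2 (0.48 ± 0.12) and Anln (0.51 ± 0.09), all in cytokinesis.

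With dFz7-21, 36 of the 39 genes were higher at 24 h than at 6 h and 1 was lower, where 29.8% of all genes were called higher, 30.1% lower and 59.9% in either direction (median log2 change of the 39, 0.66). Groups did not overlap in 36 genes that were higher (30% of all genes) and in 1 that was lower (30.7%). In the same libraries crypt stem cell markers summed to 248 to 369.5 CPM at 24 h, against 1377.5 to 1584 CPM at 6 h. Enterocyte markers summed to 3994 to 4678 CPM, against 1429 to 1785 CPM, and Paneth cell markers to 1962 to 2248 CPM, against 3402 to 3823 CPM. Epithelial markers (14348 to 15495 CPM, against 20589 to 21328 CPM) and enteroendocrine markers (204 to 257 CPM, against 285 to 332 CPM) were lower at 24 h too. The part of these markers was not tested. Cep55 was the gene that was lower, with 38.9, 38.4, 36.7 and 41.9 CPM at 24 h, against 43.0, 45.1, 43.6 and 43.3 CPM at 6 h (-0.17 ± 0.07, adjusted p = 0.0361). Its groups did not overlap, but the call was lost in 7 of 8 fits that left out a library, and without the 3 libraries with mesenchymal transcripts (-0.14, adjusted p = 0.113), where 35 genes were higher and 0 lower. Kif23 had 104, 108, 103 and 110.5 CPM at 24 h, against 109, 105, 107 and 111 CPM at 6 h, and did not pass (-0.13 to 0.08). Ect2 had 101, 96.8, 92.4 and 101 CPM at 6 h, overlapping its 24 h libraries, and did not pass (-0.29 to 0.21). Ccnb2 rose most here too, by 2.63-fold (1.40 ± 0.08, adjusted p = 2.41e-13), and the smallest p after it and Aurkb (0.92 ± 0.04) were those of Nusap1 (0.95 ± 0.06), Racgap1 (0.73 ± 0.04), Kif2c (1.03 ± 0.07) and Dlgap5 (0.75 ± 0.05).

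With Fz7-21S, 38 genes were higher at 24 h and 0 lower, where 31% of all genes were called higher, 28.1% lower and 59.1% in either direction (median log2 change of the 39, 0.78). Groups did not overlap in 35 genes that were higher (25.5% of all genes) and in 0 that were lower (24.3%). In these libraries enterocyte markers summed to 2802 to 4122 CPM at 24 h, against 1563 to 1774 CPM at 6 h. Crypt stem cell markers were higher too (2029.7 to 2319 CPM, against 1808 to 1914.5 CPM). Lower at 24 h were epithelial markers (11738 to 16002 CPM, against 19107 to 20031 CPM) and enteroendocrine markers (177 to 254 CPM, against 288 to 315 CPM). Tuft cell markers were lower as well (7.84 to 14.6 CPM, against 16.0 to 17.4 CPM). The part of these markers was not tested. Ccnb2 changed by 1.60 ± 0.08 (SE, adjusted p = 4.94e-14), Nusap1 by 1.25 ± 0.06 (SE, adjusted p = 1.03e-14) and Aurkb by 0.90 ± 0.04 (SE, adjusted p = 3.51e-14), and Cep55 had the lowest change (0.17 ± 0.07, adjusted p = 0.0308), whose call was lost in 6 of 8 fits that left out a library. Ect2 was not called (0.25 ± 0.12, adjusted p = 0.0864), but was called without replicate 4 of the 24 h group, at 0.42 (adjusted p = 1.42e-07).

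**Figure D3:**
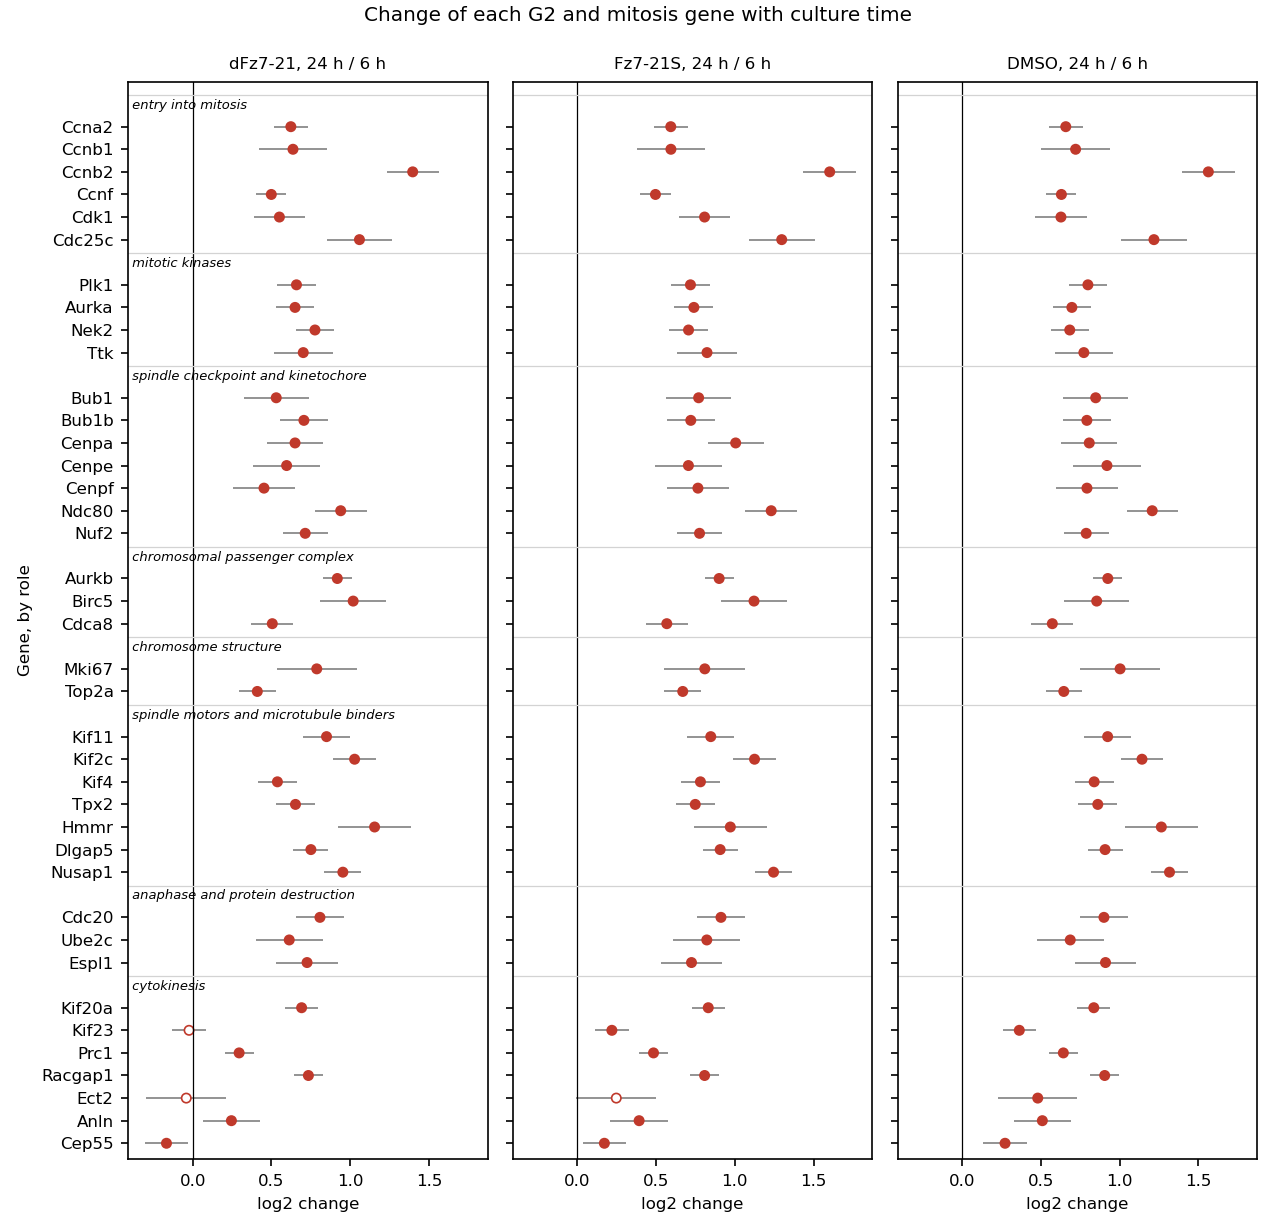
Log2 change (x axis) of 24 h over 6 h of each of the 39 genes with dFz7-21, Fz7-21S and DMSO, grouped by role, with 95% intervals. Filled points passed an adjusted p of 0.05. All 39 points are filled and right of 0 in DMSO, where Ccnb2 reaches 1.56, while Kif23, Ect2 and Cep55 lie at or left of 0 with dFz7-21.

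Whether the effect of dFz7-21 differed between the times was tested as an interaction term, which uses the same libraries as the comparisons above. Against DMSO 7 of 39 genes had a lower effect at 24 h than at 6 h and 0 a higher one, where 5.78% of all genes were called lower, 7.37% higher and 13.2% in either direction. Of these, 4 belong to cytokinesis: Prc1 (-0.35 ± 0.06, adjusted p = 0.000453), Kif23 (-0.39 ± 0.07, adjusted p = 0.000622), Cep55 (-0.44 ± 0.09, adjusted p = 0.00236) and Ect2 (-0.52 ± 0.17, adjusted p = 0.0475). The others were Nusap1 (-0.36 ± 0.08, adjusted p = 0.00292), Kif4 (-0.30 ± 0.08, adjusted p = 0.0172) and Top2a (-0.24 ± 0.08, adjusted p = 0.0494). At 6 h Prc1 had 88.9, 86.2, 84.3 and 92.0 CPM with dFz7-21, against 85.7, 80.4, 77.0 and 82.1 CPM with DMSO, and at 24 h 106, 109, 107 and 109.6 CPM with dFz7-21, against 125, 132, 126 and 125 CPM with DMSO. The 24 h groups did not overlap and the 6 h groups did. Birc5 had the highest interaction, 0.16 ± 0.14, and did not pass.

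Prc1, Kif23, Cep55 and Nusap1 kept this call in every fit that left out a library, whereas Ect2 lost it in all 16 and Top2a in 14. The count was 4 when 1 library was left out that was replicate 1 or 3 of dFz7-21 at 24 h, or replicate 3 or 4 at 6 h, and 4 without the 3 libraries with mesenchymal transcripts. Set against Fz7-21S, 4 of 39 were lower, where 5.1% of all genes were called lower, 5.83% higher and 10.9% in either direction: Nusap1 (-0.29 ± 0.08, adjusted p = 0.0183), Cep55 (-0.34 ± 0.09, adjusted p = 0.021), Kif23 (-0.24 ± 0.07, adjusted p = 0.031) and Top2a (-0.26 ± 0.08, adjusted p = 0.0345). Prc1 (-0.19 ± 0.06, adjusted p = 0.0569) and Cenpa (-0.36 ± 0.12, adjusted p = 0.0612) came next by p, and Hmmr had the highest value, 0.18 ± 0.16. These calls were not stable: 0 were made with no filter on low counts, 0 in a fit of only the groups compared, 2 with RLE factors, 2 without the 3 libraries with mesenchymal transcripts and 0 to 10 in the 16 fits that left out a library, with 0 in 7 of them. The 10 came without Fz7-21S 24 h replicate 4, with Ect2 among them at -0.44 (adjusted p = 0.000106). For the effect of Fz7-21S against DMSO, 0 of 39 genes were called by edgeR or DESeq2, and 0% of all genes by edgeR. At the looser threshold of an unadjusted p below 0.05 were 2 of the 39.

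**Figure D4:**
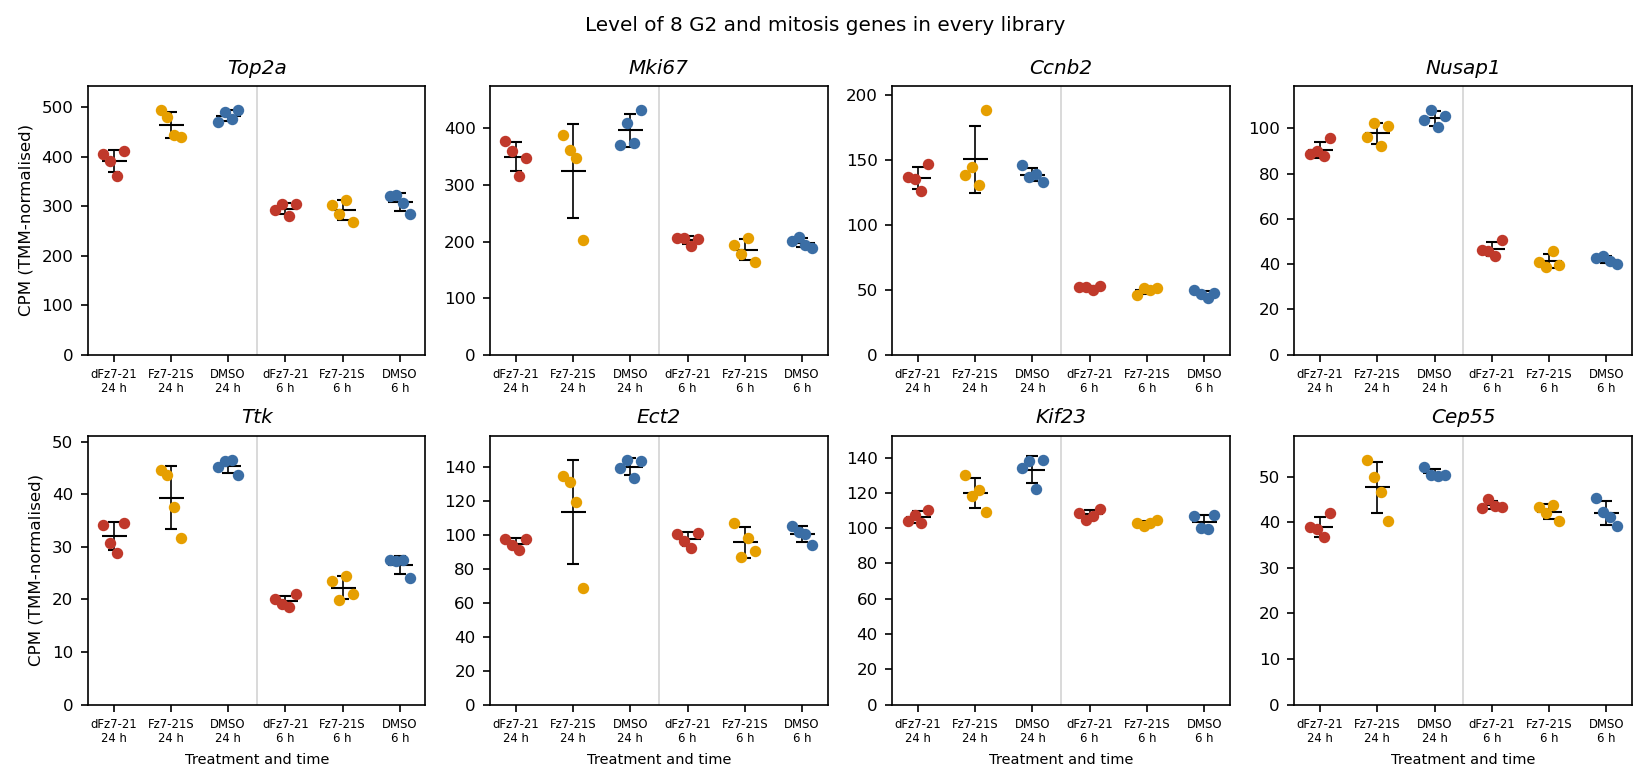
Level in CPM (y axis, from 0) of Top2a, Mki67, Ccnb2, Nusap1, Ttk, Ect2, Kif23 and Cep55 in each of the 24 libraries, by treatment and time. Points are libraries, and the bars mark the mean with its SD over 4. Ect2 stands at 91.0 to 97.8 CPM with dFz7-21 at 24 h and at 134 to 144 CPM with DMSO at 24 h, and Fz7-21S 24 h replicate 4 is the lowest 24 h library for Mki67 and Ect2.

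Further genes of G2 and mitosis outside the 39, a list of 88 with condensins, kinetochore and tubulin genes among others, were lower with dFz7-21 in 41 cases at 24 h and in 13 at 6 h against DMSO, and higher in 0 at both times (medians -0.23 and -0.11), where 17.7% of all genes were called lower at 24 h and 5% at 6 h. Without the 3 libraries with mesenchymal transcripts 29 were lower at 24 h and 3 at 6 h. Tubb5, a beta tubulin, changed by -0.55 ± 0.05 at 24 h, the condensin subunit Ncapd2 by -0.36 ± 0.05 and the spindle protein Spag5 by -0.34 ± 0.06. In DMSO 74 of the 88 were higher at 24 h than at 6 h and 1 lower (median 0.58), where 27.3% of all genes were called higher and 24.9% lower. DNA replication and S phase genes, a list of 54, were lower with dFz7-21 in 48 cases at 24 h (median -0.43) and also in 48 at 6 h (median -0.41), and higher in 0, beside the same shares of all genes. Without the 3 libraries they were lower in 48 cases at 24 h and in 35 at 6 h (medians -0.41 and -0.39). Mcm6, a subunit of the replicative helicase, changed by -0.58 ± 0.05 at 24 h and -0.56 ± 0.05 at 6 h, and the loading factor Cdc6 by -0.69 ± 0.06 and -0.65 ± 0.06. Between the times in DMSO 27 of these genes were higher and 11 lower at 24 h (median 0.16). Whether the lists differ from each other was not tested.

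Of 29 regulators of this program, 13 were lower and 2 higher with dFz7-21 at 24 h against DMSO, and 8 were lower and 2 higher at 6 h. Over all genes 17.7% were called lower and 18.2% higher at 24 h, and 5% lower and 6.05% higher at 6 h. Without the 3 libraries 13 regulators were lower at 24 h and 4 at 6 h, with 2 higher at each time. Foxm1, the transcription factor that activates G2 and mitosis genes, had 92.6 ± 2.19 CPM with dFz7-21 and 103 ± 6.85 CPM with DMSO at 24 h (SD, n = 4 each) and did not pass (-0.15 ± 0.08, interval -0.32 to 0.02). Mybl2, the MYB protein that works with it, was lower at 24 h (-0.29 ± 0.07, adjusted p = 0.00366). Lin54, which binds CHR sequences for the repressor and activator complexes of this program, did not pass (-0.30 to 0.12), nor did E2f4 (-0.12 to 0.07) and the pocket protein Rbl1 (-0.46 to -0.04).

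E2f1, an activator of S phase genes, was lower at 24 h (-0.57 ± 0.08, adjusted p = 5.69e-06) and at 6 h (-0.71 ± 0.08, adjusted p = 2.22e-06). Cdkn1a, the kinase inhibitor p21 and a target of p53, had 296 ± 44.7 CPM with dFz7-21 and 179 ± 7.29 CPM with DMSO at 24 h, a log2 change of 0.72 ± 0.08 (adjusted p = 6.24e-08), and was higher at 6 h too (0.50 ± 0.08, adjusted p = 5.59e-05). Trp53 itself was lower at 24 h (-0.33 ± 0.05, adjusted p = 1.21e-05) and did not pass at 6 h (-0.14 ± 0.05, adjusted p = 0.0622). Wee1, the kinase that holds Cdk1 inactive, was lower at both times (-0.45 ± 0.06 and -0.25 ± 0.06). Fzr1, which targets cyclins for destruction after anaphase, did not pass at 24 h (-0.04 to 0.23). Between the times in DMSO, Foxm1 was higher at 24 h (0.70 ± 0.08, adjusted p = 1.42e-07) and Cdkn1a lower (-1.13 ± 0.08, adjusted p = 1e-11), while Mybl2 did not pass (-0.16 to 0.14).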

How the data were processed

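Per the labels, polyadenylated RNA from small intestinal organoids was isolated with the RNeasy Micro kit, and the submitters' processing notes name GSNAP and GRCm38. Of the aligner's version, annotation, strand use and filters nothing is given in the sources used here. The deposited count is the number of uniquely aligned reads per gene model, per the file headers. The authors' RPKM values are size-factor-adjusted, again per the file headers. They served to order levels between genes and, by the ratio of count to RPKM, to give relative gene model lengths.

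Counts of 24 libraries (20.4 M to 33.1 M) were fitted together in edgeR 4.0.16 (R 4.3.3, limma 3.58.1) with a coefficient for each of 6 groups, TMM factors, filterByExpr (15429 genes kept) and the robust quasi-likelihood F test, two-sided, and a gene was called at a Benjamini-Hochberg adjusted p below 0.05 over all genes tested. SE is the log2 change over the square root of F, and intervals are 95%. A count of 3 equals 0.0906 to 0.147 CPM, a floor that covers counting error only. IDs without a RefSeq symbol, with 2.55% to 3.51% of counts, stayed in the tests. The code was tested on simulated counts.

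The 39 genes, the other lists and their roles were chosen with earlier results of these data known. Named are 12 members (Mki67, Ccna2, Ccnb1, Cdk1, Plk1, Aurka, Aurkb, Top2a, Cdc20, Bub1, Birc5 and Cenpf), the 6 of smallest p in a comparison, its highest and lowest change, any called against the majority, 10 regulators, and up to 3 genes of smallest p per further list; others are named where their role is described. The slope on gene model length, from the ratio of count to RPKM, was added after the values were seen. Alternatives were RLE factors, no filter, DESeq2 1.42.0, fits of only the groups compared, the replicate number as a block, fits without 3 libraries with mesenchymal transcripts or without 5 that stand apart (adding replicate 4 of Fz7-21S and replicate 2 of DMSO, both at 24 h), and fits without each replicate. DMSO 24 h replicate 2 was ordinary in its mesenchymal markers, which summed to 11.3 CPM, and in its slope on gene model length, 0.00617. The other lists without the 3 libraries were added after the values were seen. Replicates differed by more than sampling noise in every pair (chi-square of 2.77 to 88.9 for each degree of freedom).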

Additional observations from a re-analysis of the deposited data

Results flagged for a closer look

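The effect of dFz7-21 differed between 24 h and 6 h in 7 genes against DMSO and in 4 against Fz7-21S, by edgeR's interaction test with Benjamini-Hochberg adjustment. Against DMSO the difference in log2 change, 24 h minus 6 h, was -0.24 for Top2a, -0.30 for Kif4, -0.36 for Nusap1, -0.39 for Kif23, -0.35 for Prc1, -0.52 for Ect2 and -0.44 for Cep55. Against Fz7-21S it was -0.26 for Top2a, -0.29 for Nusap1, -0.24 for Kif23 and -0.34 for Cep55. All 4 calls against Fz7-21S were lost with no filter on low counts, in a fit of only the groups compared and in 7 of the 16 fits that left out a library. Over all genes 13.2% were called against DMSO and 10.9% against Fz7-21S. Adjusted p ran from 0.000453 (Prc1) to 0.0494 (Top2a, both against DMSO).

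Single libraries far from the other 3 of their group, by Dixon's test at 95%, were found in 14 of 126 groups (21 genes in 6 groups), where chance gives about 5% of groups. Fz7-21S 24 h replicate 4 was high for Cdk1 at 309 CPM, against 215 to 223 CPM in the other 3, for Cdc20 at 241 CPM, against 174 to 184 CPM, and for Birc5 at 213 CPM, against 129 to 137 CPM. The same library was low for Prc1 at 107 CPM, against 117 to 119 CPM, and Fz7-21S 24 h replicate 3 was low for Ndc80 at 30.2 CPM, against 36.9 to 37.3 CPM.

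In dFz7-21 6 h replicate 3, Mki67 was low at 193 CPM, against 205 to 207 CPM, Kif20a low at 68.9 CPM, against 71.8 to 72.4 CPM, and Bub1 high at 35.8 CPM, against 29.8 to 30.5 CPM. In dFz7-21 24 h replicate 4, Ccnb1 was high at 18.5 CPM, against 15.8 to 16.1 CPM. DMSO 6 h replicate 1, which held mesenchymal transcripts, was high for Cdk1 at 152 CPM, against 141 to 142 CPM, and for Aurka at 80.2 CPM, against 69.7 to 70.4 CPM. DMSO 6 h replicate 4 was low for Ttk at 24.0 CPM, against 27.3 to 27.6 CPM. DMSO 24 h replicate 1 was high for Cep55 at 52.0 CPM, against 50.2 to 50.4 CPM, and DMSO 24 h replicate 2 for Prc1 at 131.9 CPM, against 125 to 126 CPM. Whether the library or the genes set these values was not tested.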

How the results depend on the processing

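The number of the 39 genes called kept its value within 1.5 times in 65 of 84 combinations of a comparison with another setting, and DMSO over time gave 39 in every setting run. The 65 include the comparisons over time, where nearly all of the 39 were called. They also include those of Fz7-21S with DMSO, where 0 were called in the main fit. Most counts outside that range belonged to comparisons of dFz7-21 with DMSO or Fz7-21S. The cause of the counts outside that range was not tested. Counts in other settings stand without the share of all genes called in the same fit. A moved count is therefore not a result about these genes alone. For dFz7-21 against DMSO at 24 h (23) there were 13 calls with no filter on low counts. At 6 h (3) there were 0 without the 3 libraries with mesenchymal transcripts and 9 in a fit of only the groups compared, 8 lower and 1 higher. For dFz7-21 against Fz7-21S at 24 h (10) there were 6 with no filter, 6 without those 3 libraries and 2 in a fit of only the groups compared. At 6 h (0) there were 4 without the 5 libraries that stand apart, 4 in a fit of only the groups compared and 1 by DESeq2. The 24 h comparison of Fz7-21S with DMSO (0) gave 2 by DESeq2. For the interaction against DMSO (7) there were 4 with no filter, 4 without the 3 libraries, 13 without the 5 libraries and 13 in a fit of only the groups compared. For that against Fz7-21S (4) there were 2 with RLE factors, 0 with no filter, 2 without the 3 libraries, 11 without the 5 libraries and 0 in a fit of only the groups compared. Leaving out 1 library at a time gave 13 to 19 calls for dFz7-21 against DMSO at 24 h and 2 to 4 at 6 h, and 4 to 11 and 0 to 1 against Fz7-21S. It gave 0 to 6 for Fz7-21S against DMSO at 24 h (6 without Fz7-21S 24 h replicate 1), 36 to 37 for dFz7-21 over time, 37 to 39 for Fz7-21S over time, 4 to 6 for the interaction against DMSO and 0 to 10 for that against Fz7-21S, where 10 came without Fz7-21S 24 h replicate 4, 0 without dFz7-21 24 h replicate 1, 2 or 3, dFz7-21 6 h replicate 1 or 4, Fz7-21S 24 h replicate 2 or Fz7-21S 6 h replicate 2, 1 without dFz7-21 6 h replicate 3 or Fz7-21S 6 h replicate 3, and 2 without dFz7-21 24 h replicate 4, Fz7-21S 24 h replicate 1 or 3 or Fz7-21S 6 h replicate 4. The 1 call for dFz7-21 against Fz7-21S at 6 h came without Fz7-21S 6 h replicate 3.

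Among 12 genes followed in dFz7-21 against DMSO at both times and in DMSO over time, signs turned only in changes that were not called. At 24 h, without the 5 libraries, the log2 change with dFz7-21 against DMSO was 0.0005 for Ccnb1 and 0.0185 for Cdc20. At 6 h it was 0.1925 for Ccnb1, 0.0203 for Plk1 and 0.0214 for Bub1 without the 3 libraries, 0.1869 for Ccnb1, 0.0133 for Plk1 and 0.0151 for Bub1 without the 5 libraries, and for Aurka -0.0165 with no filter and -0.0146 with only the groups compared. Without 1 library at a time it ran from -0.0487 to 0.0114 for Cdc20 at 24 h, and at 6 h from -0.1125 to 0.0734 for Ccnb1, -0.0559 to 0.0211 for Plk1, -0.0192 to 0.0518 for Aurka and -0.1175 to 0.003 for Bub1. Against Fz7-21S at 24 h, leaving out Fz7-21S 24 h replicate 4 gave -0.04 for Mki67 (0.11 with it), 0.08 for Ube2c (-0.13 with it) and 0.00 for Ccnb2 (-0.14 with it).

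No general pairing by replicate number was seen: deviations of same-numbered libraries correlated above 0.1 in 5 of 60 pairs of libraries (r from -0.516 to 0.32). Both extremes were between dFz7-21 at 24 h and DMSO at 6 h, the groups that hold libraries with mesenchymal transcripts. With the replicate number as a block the counts were 23 at 24 h and 3 at 6 h for dFz7-21 against DMSO, 10 at 24 h and 0 at 6 h against Fz7-21S, 0 and 0 for Fz7-21S against DMSO, 39, 37 and 38 over time in DMSO, dFz7-21 and Fz7-21S, and 6, 4 and 0 for the interactions. The lowest count of a member in a library was 205 (Ccnb1), and counting error is part of the spread between libraries for members of low count.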
